A study of Mus musculus with 6 samples.

Results

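The genes described here are 32 genes that mark epithelium, and in particular the oral and surface ectoderm that covers the mandibular arch of the mouse embryo. They are a list of names and not a cut on measured values, although earlier results of these data were known when the list was drawn up: keratins, junction and adhesion genes, epithelial splicing factors, genes of membrane trafficking and surface proteolysis, and transcription factors of the surface ectoderm. All 32 had at least 1 probe set that the array annotation assigned to a single gene symbol, among 18194 such genes, and each was read from its brightest probe set. All 32 lay above 4 on the log2 scale, the level used to set aside dim genes, on every one of the 6 arrays, the lowest value being 4.39.

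The mandibular arch, the tissue that forms the lower jaw, was dissected at stage E10.5 from C57BL/6 embryos, wild type (Tbx1+/+) or homozygous null (Tbx1-/-) for the T-box transcription factor Tbx1, and RNA was read on 6 expression arrays, 3 per genotype. Arches of 3 embryos were pooled by genotype, and it is not clear from the study text if every array had a separate pool. The p-values therefore reflect only the scatter among these 6 arrays. Readings are in log2 units of probe set brightness, and differences are given as labelled null minus wild type. In such bulk tissue, fewer epithelial cells and less transcript per cell cannot be told apart.

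An arch at this stage is a core of mesenchyme wrapped in a thin epithelium, ectoderm outside and in the mouth, endoderm on the pharyngeal side. Embryonic surface ectoderm is a simple epithelium rich in keratins 8, 18 and 19, which gains the basal keratins 5 and 14 under the transcription factor p63 as it commits to stratify. Adherens junctions built on E-cadherin, tight junctions built on claudins, and desmosomes hold such sheets together. Trophoblast, the epithelium of the placenta, also carries keratins 7, 8, 18 and 19, so these 4 genes do not by themselves mark arch ectoderm.

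The promoters below belong to genes that differed in behaviour across the arrays: Krt8, Krt18 and Krt7 read high together on 1 array, while Krt5 and Epcam did not. They span 250 bases before to 50 bases after the annotated start in RefSeq on GRCm38.p6, 5′ to 3′ on the strand of the gene. Capitals mark matches on either strand to 4 motifs: GCCNNNGGC, bound by AP-2 factors such as Tfap2a and Tfap2b, AACNGGTT, bound by Grainyhead-like factors such as Grhl2 and Grhl3, the TATA box TATAAA and the GC box GGGCGG.
Krt8, chr15:102004293-102004592, minus strand: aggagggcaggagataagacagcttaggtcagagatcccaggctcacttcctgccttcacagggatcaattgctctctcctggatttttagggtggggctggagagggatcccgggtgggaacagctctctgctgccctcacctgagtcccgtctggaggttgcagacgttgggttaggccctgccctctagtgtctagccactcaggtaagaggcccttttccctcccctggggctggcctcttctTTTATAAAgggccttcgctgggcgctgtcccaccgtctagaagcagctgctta
Krt18, chr15:102027966-102028265, plus strand: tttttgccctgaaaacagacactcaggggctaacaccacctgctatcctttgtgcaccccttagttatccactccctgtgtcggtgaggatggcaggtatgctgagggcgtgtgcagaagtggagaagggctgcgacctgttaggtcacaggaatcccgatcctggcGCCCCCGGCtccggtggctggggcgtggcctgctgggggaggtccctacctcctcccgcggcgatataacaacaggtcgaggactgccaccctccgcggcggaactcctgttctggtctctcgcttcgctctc
Krt7, chr15:101412153-101412452, plus strand: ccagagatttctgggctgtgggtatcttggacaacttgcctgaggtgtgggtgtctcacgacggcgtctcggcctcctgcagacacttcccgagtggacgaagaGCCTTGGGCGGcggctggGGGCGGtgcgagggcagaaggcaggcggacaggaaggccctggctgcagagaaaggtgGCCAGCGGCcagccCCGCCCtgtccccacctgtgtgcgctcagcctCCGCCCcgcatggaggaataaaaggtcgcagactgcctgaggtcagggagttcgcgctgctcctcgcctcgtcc
Krt5, chr15:101712856-101713155, minus strand: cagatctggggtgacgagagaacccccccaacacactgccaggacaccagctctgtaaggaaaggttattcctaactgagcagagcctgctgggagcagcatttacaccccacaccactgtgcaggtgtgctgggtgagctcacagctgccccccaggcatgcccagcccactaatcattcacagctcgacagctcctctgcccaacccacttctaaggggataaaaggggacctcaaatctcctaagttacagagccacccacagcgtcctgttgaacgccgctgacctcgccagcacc
Epcam, chr17:87635729-87636028, plus strand: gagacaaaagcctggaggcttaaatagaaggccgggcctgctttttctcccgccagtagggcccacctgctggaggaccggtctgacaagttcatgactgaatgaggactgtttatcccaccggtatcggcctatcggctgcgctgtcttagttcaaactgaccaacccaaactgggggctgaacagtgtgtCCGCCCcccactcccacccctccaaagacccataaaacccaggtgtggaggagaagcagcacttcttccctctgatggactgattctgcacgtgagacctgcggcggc

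Krt8 and Krt18, partner keratins that lie near each other, shared none of these motifs in the window. Krt8 held 2 overlapping TATA box matches, on opposite strands, spanning the annotated start. Krt18 held 1 AP-2 match, and Krt7 held 2 AP-2 matches and 4 GC boxes, 1 of them overlapping an AP-2 match. Epcam held 1 GC box, and none of the 4 motifs was found in the window of Krt5. The RefSeq table matched 20 of the 32 genes, with 22 promoters: AP-2 matches were in 6 of these 22 (27.3%) against 16.6% of all 32851 promoters, Grainyhead-like matches in 1 (4.55%) against 2.09%, TATA boxes in 1 (4.55%) against 13.6%, and GC boxes in 13 (59.1%) against 35.7%. A match is a description of the letters and not evidence of binding.

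Whole-series facts frame these values. Tbx1 itself, on its 1 probe set, read 6.93, 7.31 and 6.92 (log2) on wild-type replicates 1 to 3 and 7.59, 7.498 and 7.30 on labelled-null replicates 1 to 3. It was thus not lower on the arrays labelled null but higher by 0.41 (SE 0.14, unadjusted p 0.0205 in limma), and by 0.49 without labelled-null replicate 3. Neither difference passed the adjusted threshold described below. Since the sources used here do not give the deleted part of the gene, the labels cannot be checked with Tbx1. Markers of arch mesenchyme (Prrx1, Vim and 13 others) were all above 4 on every array. Their summed antilog values were 46847 to 48096 on the wild-type arrays and 44576 to 50098 on the labelled-null arrays. By mean, 9 were higher and 6 lower on the labelled-null arrays. The 2 most different, Snai1 and Alx4, were higher on every labelled-null array than on any wild-type array. They differed by 0.39 (SE 0.10) and 0.32 (SE 0.13), and neither passed the test described below. Without labelled-null replicate 3 they differed by 0.35 and 0.39. Labelled-null replicate 3 stood apart: 249 of 16074 tested genes (1.55%) read there at a level exceeding the average of the remaining 5 arrays by over 1 in log2 units, against 6 to 32 genes on each of the others. Differences below are from all 6 arrays, and those without that array are given after them.

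None of the 32 genes passed the test between the genotypes, limma with Benjamini-Hochberg adjustment over all genes at a threshold of 0.05, where 0.0373% of the tested genes passed, 0.0124% higher and 0.0249% lower on the labelled-null arrays. With the replicate number as a block 0 of the 32 passed as well, where 0.0622% of all genes did. The unadjusted limma p was under 0.05 for 4 genes that were higher on the labelled-null arrays (Krt18, Krt19, Pkp2 and Prss8) and for 0 that were lower, against 1.47% and 1.20% of all tested genes. With the replicate number as a block it was under 0.05 for 6 higher genes, which were Krt8, Krt18, Krt19, Pkp2, Prss8 and Grhl2, and for 2 lower ones, Krt5 and Tfap2b, against 2.35% and 1.89% of all genes. The median difference of the 32 was 0.07 (log2), and that of all tested genes was -0.01. Without labelled-null replicate 3 the median of the 32 was 0.04, 0 of the 32 passed, where 0.137% of all genes did, and the unadjusted limma p was under 0.05 for 3 higher genes and 0 lower ones, against 1.78% and 1.41% of all genes. A p that misses the threshold does not show equality, so intervals were also taken. The 95% confidence interval of the difference lay within 0.5 on either side of 0 (log2), that is within 1.41-fold, for 18 of the 32 genes, and within 1, or 2-fold, for 26. The 6 genes with a wider interval were Krt5, Krt7, Krt8, Krt18, Krt19 and Pkp2. Without labelled-null replicate 3 the counts were 19 and 30, and the wider intervals were those of Krt5 and Pkp2.

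**Figure D1:**
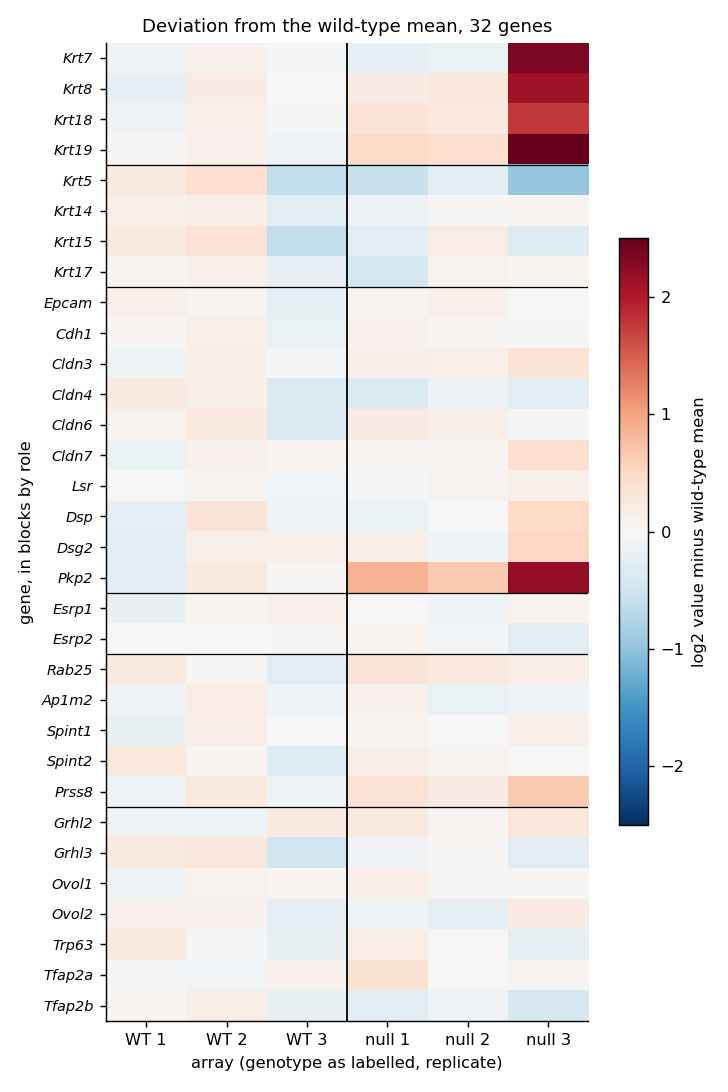
Deviation of each of the 32 genes (rows, in blocks by role) from its wild-type mean on each array (columns), in log2 units, red above and blue below. The 4 simple keratins and Pkp2 are the dark red cells of labelled-null replicate 3, each over 1 above what the remaining arrays averaged. The basal keratins vary within a genotype, and Krt5 and Krt15 are blue on wild-type replicate 3.

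The simple keratins, intermediate filament proteins of single-layered epithelia, had the highest median difference of the 6 classes, 0.83 (log2) over 4 genes, and its size rested on labelled-null replicate 3. Without that array their median was still the highest of the 6, at 0.28. Krt8, a type II keratin, read 10.35, 10.79 and 10.59 on the wild-type arrays and 10.78, 10.85 and 12.69 on the labelled-null arrays, in replicate order. Its type I partner Krt18 read 11.65, 11.87 and 11.71 on the wild-type arrays and 12.10, 12.01 and 13.50 on the labelled-null arrays. On both genes labelled-null replicate 3 was the highest array, and for Krt18 the genotypes did not overlap. Krt19, a type I keratin of simple and embryonic epithelia, read 9.18, 9.26 and 9.02 on the wild-type arrays and 9.62, 9.58 and 11.65 on the labelled-null arrays, again without overlap. Krt7, a type II keratin of ducts, trophoblast and other simple epithelia, read 8.68, 8.88 and 8.75 on the wild-type arrays and 8.54, 8.60 and 11.12 on the labelled-null arrays. Labelled-null replicates 1 and 2 thus lay below all wild-type arrays and labelled-null replicate 3 far above them.

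Against the mean of the other 5 arrays, labelled-null replicate 3 was higher by 2.43 (log2, 5.39-fold) for Krt7, by 2.32 (4.98-fold) for Krt19, by 2.02 (4.05-fold) for Krt8 and by 1.63 (3.10-fold) for Krt18. The other 5 arrays spanned no more than 0.60 for any of these 4 genes. The 2 other probe sets of Krt8 were higher on that array by 2.06 and 2.20. These are readings of a single array and carry no test. Of the 32 genes, 5 (15.6%) exceeded the average of the remaining arrays by over 1 there, the 4 simple keratins and Pkp2, against the 1.55% of all genes.

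The genotype differences with all arrays were 0.65 for Krt7 (SE 0.60, log2, limma), 0.87 for Krt8 (SE 0.45), 0.80 for Krt18 (SE 0.34) and 1.13 for Krt19 (SE 0.48), n = 3 per genotype, with an adjusted p of 1.00 for each. Without labelled-null replicate 3 they were -0.20 (SE 0.11), 0.24 (SE 0.13), 0.31 (SE 0.09) and 0.45 (SE 0.11), in the same order, with limma adjusted p-values of 1.00, 1.00, 0.735 and 0.568. The sign of Krt7 turned and the other 3 kept theirs at a smaller size. Krt18 and Krt19 read higher on labelled-null replicates 1 and 2 than on any wild-type array, by 1.24-fold and 1.36-fold on average, differences that did not pass the adjusted threshold.

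**Figure D2:**
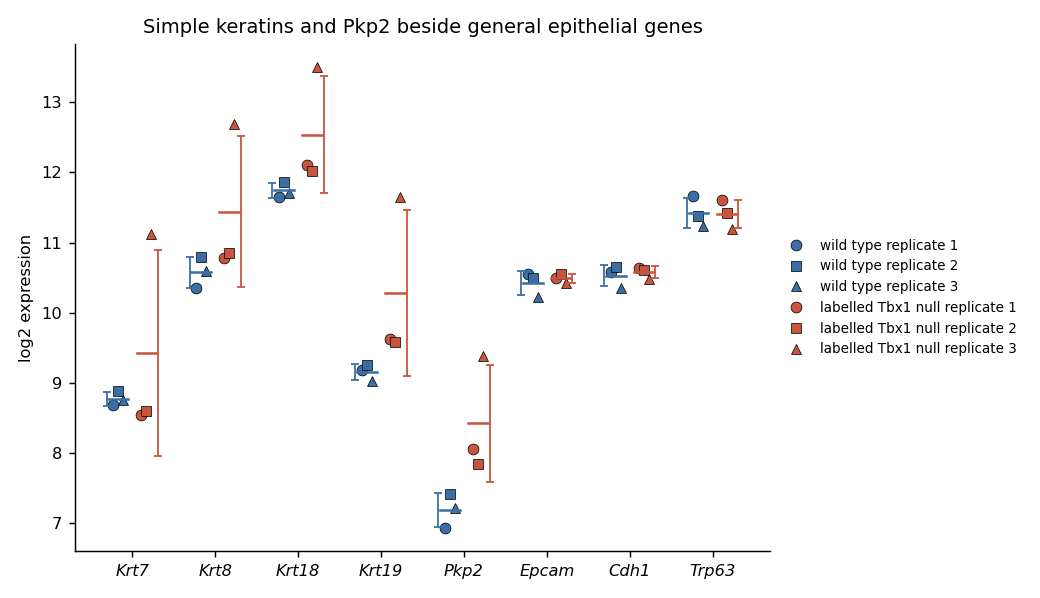
Log2 expression (vertical axis) of the simple keratins, Pkp2 and 3 general epithelial genes on the wild-type (blue) and labelled-null (red) arrays, with marker shapes for the replicate number, horizontal lines for means and bars for SD (n = 3). The red triangles of labelled-null replicate 3 stand above all other arrays for Krt7, Krt8, Krt18, Krt19 and Pkp2, and within or near the others for Epcam, Cdh1 and Trp63.

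Trophoblast markers moved with that array. Of 25 listed genes 18 were measured, and 10 exceeded the average of the remaining arrays by over 1 on labelled-null replicate 3. Prl7a1, a placental prolactin relative, read 13.28 there and 3.53 to 4.76 on the other arrays, and Prl8a9, of the same family, read 10.85 there and 2.76 to 3.68 elsewhere. The summed antilog value of the 18 genes was 934 to 1018 on the wild-type arrays, 1078 and 1046 on labelled-null replicates 1 and 2 and 35563 on labelled-null replicate 3. Outside that array 5 markers, Prl8a9, Tpbpa, Ctsq, Ctsj and Cts8, were at or below 4 on every array. Without that array 14 of the 18 still had a higher mean on the labelled-null arrays, where 7497 of all 16074 tested genes did. The list was not uniform: Hand1, a factor of trophoblast giant cells that the ventral arch also expresses, read 9.63 there against 8.35 to 8.81 elsewhere, and Ascl2, a spongiotrophoblast regulator named after its values were seen, read 5.64 there, the lowest of the 6 arrays. The part of these cells in the keratin values was not tested.

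**Figure D3:**
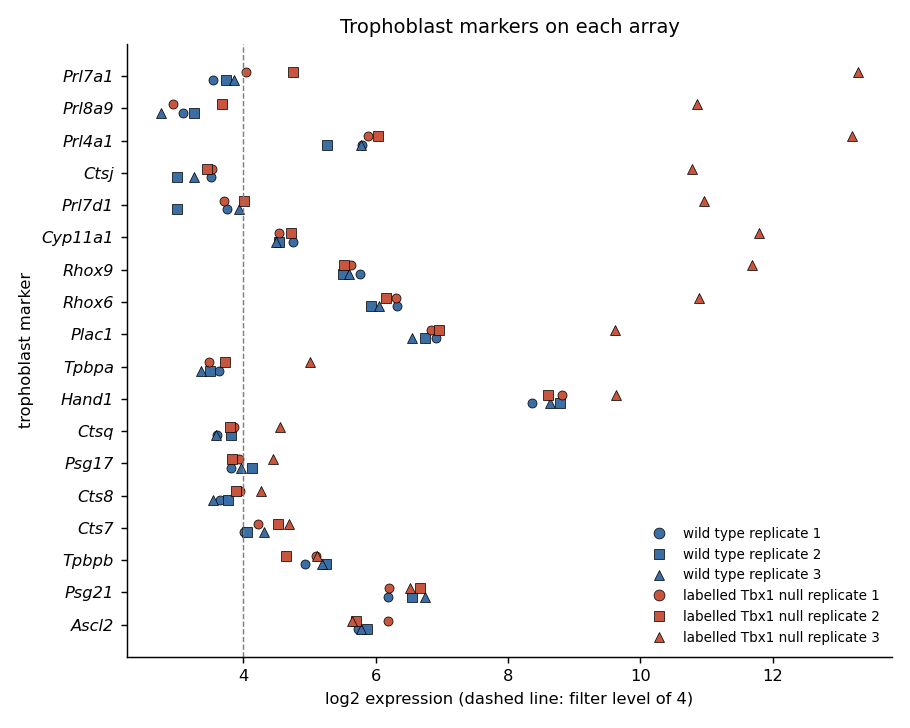
Log2 expression (horizontal axis) of the 18 measured trophoblast markers (rows, ordered by their excess on labelled-null replicate 3) on each array, with the filter level of 4 dashed. The red triangles of labelled-null replicate 3 lie far to the right for the upper rows, such as Prl7a1 at 13.28, and near or among the other arrays for the lowest rows, except that it is the lowest array for Ascl2.

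The marker lists of visceral yolk sac endoderm and of pharyngeal endoderm did not share that pattern. Of 13 measured genes of the visceral yolk sac endoderm, another simple epithelium, 0 were more than 1 above the other arrays on labelled-null replicate 3, and 10 had lower means on the labelled-null arrays. Their summed antilog value was 928 to 1773 on the wild-type arrays and 746, 915 and 804 on labelled-null replicates 1 to 3. Afp, which encodes alpha-fetoprotein, read 7.53, 8.93 and 7.80 on the wild-type arrays and 5.64, 7.35 and 6.85 on the labelled-null arrays. Ttr read 6.42, 8.32 and 7.42 on the wild-type arrays and 4.75, 6.10 and 5.98 on the labelled-null arrays. Its difference was -1.78 (SE 0.49). With the replicate number as a block its limma adjusted p was 0.0361. It was the 1 of 12 tested genes of this list to pass, where 0.0622% of all genes did. In the fit on genotype alone 0 of the 12 passed. The genotypes did not overlap for 5 of the 12, all lower, against 3.25% of all tested genes. Of 9 measured pharyngeal endoderm markers 0 were more than 1 above the other arrays on labelled-null replicate 3. By mean, 5 were higher and 4 lower on the labelled-null arrays. Foxa1, a forkhead factor of endoderm, read 8.19, 8.16 and 7.72 on the wild-type arrays and 8.10, 7.68 and 7.58 on the labelled-null arrays. Sox17 read 6.86, 7.39 and 7.43 on the wild-type arrays and 8.14, 7.54 and 7.92 on the labelled-null arrays. It was the 1 of the 9 without overlap, against 3.17% of all tested genes higher in that way. Its difference was 0.64 (SE 0.20, unadjusted p 0.0117 in limma), which did not pass the adjusted threshold, and 0.61 without labelled-null replicate 3. Endothelial markers summed to 2203 to 2432 on the wild-type arrays and 2510, 2309 and 2453 on labelled-null replicates 1 to 3 (7 of 7 measured). Markers of glia and placodal neurons summed to 355 to 416 and to 419, 417 and 476 (8 of 10 measured). Of the 7 tested genes of that list 3 were higher without overlap and 0 lower, against 3.17% and 3.25% of all tested genes. Stmn2 had the largest difference, 0.90 (SE 0.17, unadjusted p 0.000529 in limma), and 0.88 without labelled-null replicate 3. It did not pass the adjusted threshold in either fit.

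Pkp2, which encodes plakophilin 2, an armadillo protein of the desmosomal plaque, had the lowest p of the 32 genes in the fit on genotype alone, and the one after Krt5 with the replicate number as a block. It read 6.93, 7.42 and 7.21 on the wild-type arrays and 8.06, 7.83 and 9.38 on the labelled-null arrays. All 3 labelled-null arrays lay above all wild-type arrays, with labelled-null replicate 3 the highest. The difference was 1.24 (log2, SE 0.36, 2.36-fold), with an unadjusted p of 0.00842 and an adjusted p of 1.00 in limma. Without that array it was 0.76 (SE 0.16, 1.69-fold), with an unadjusted p of 0.00131 and an adjusted p of 0.320 in limma, so the difference did not pass the threshold in either fit. The interval without that array ran from 0.39 to 1.13. Its 3 other probe sets differed by 1.17, 0.98 and 0.22 with all arrays and by 0.73, 0.52 and 0.07 without labelled-null replicate 3, the last being a dim set with a mean of 5.29.

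The other desmosomal genes among the 32 were also highest on that array, by 0.54 for Dsp and 0.51 for Dsg2 over the average of the remaining arrays. Dsp, which encodes desmoplakin, the linker between the plaque and keratin filaments, read 10.01, 10.58 and 10.17 on the wild-type arrays and 10.09, 10.26 and 10.76 on the labelled-null arrays. Dsg2, a desmosomal cadherin of simple epithelia, read 9.47, 9.87 and 9.87 on the wild-type arrays and 9.88, 9.65 and 10.26 on the labelled-null arrays. The genotypes overlapped on both, and the differences were 0.11 (SE 0.20) for Dsp and 0.19 (SE 0.17) for Dsg2, and -0.08 and 0.03 without labelled-null replicate 3.

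Epcam and Cdh1, the general epithelial adhesion genes, were nearly level. Epcam, an adhesion molecule of almost all embryonic epithelia, read 10.56, 10.49 and 10.22 on the wild-type arrays and 10.496, 10.54 and 10.42 on the labelled-null arrays. Cdh1, which encodes E-cadherin, read 10.58, 10.65 and 10.35 on the wild-type arrays and 10.64, 10.60 and 10.48 on the labelled-null arrays. For both genes every labelled-null value lay within the wild-type range. The difference of Epcam was 0.06 (SE 0.10, 95% interval -0.17 to 0.29) and that of Cdh1 was 0.05 (SE 0.10, 95% interval -0.17 to 0.27), in limma. Labelled-null replicate 3 minus the average of the remaining arrays was -0.04 for Epcam and -0.08 for Cdh1, beside the excess of 1.63 to 2.43 of the simple keratins. A dimmer second probe set of Epcam, with a mean of 7.42, was highest on that array, at 0.44 above the average of the others. Without that array the differences of Epcam and Cdh1 were 0.10 and 0.10.

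The claudins, the strand-forming proteins of tight junctions, and Lsr, a protein of tricellular junctions, lay close to this. Cldn6, a claudin of embryonic epithelia, differed by 0.10 (SE 0.15), Cldn7 by 0.17 (SE 0.12), Cldn3 by 0.21 (SE 0.12) and Lsr by 0.07 (SE 0.10). Without labelled-null replicate 3 these differences were 0.18, 0.05, 0.14 and 0.03, in the same order. Cldn4 went the other way and read 6.21, 6.12 and 5.61 on the wild-type arrays and 5.63, 5.83 and 5.69 on the labelled-null arrays, a difference of -0.26 (SE 0.17), and -0.25 without that array. Wild-type replicates 1 and 2 lay above all labelled-null arrays and wild-type replicate 3 below them. Of the 10 adhesion and junction genes 9 had higher and 1 a lower mean on the labelled-null arrays, where 7598 of all 16074 tested genes were higher. Several of these differences were smaller than their SE, as for Epcam, Cdh1, Lsr and Dsp. The median of the 10 was 0.11, and 0.07 without labelled-null replicate 3. The median was 0.22 without wild-type replicate 2.

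**Figure D4:**
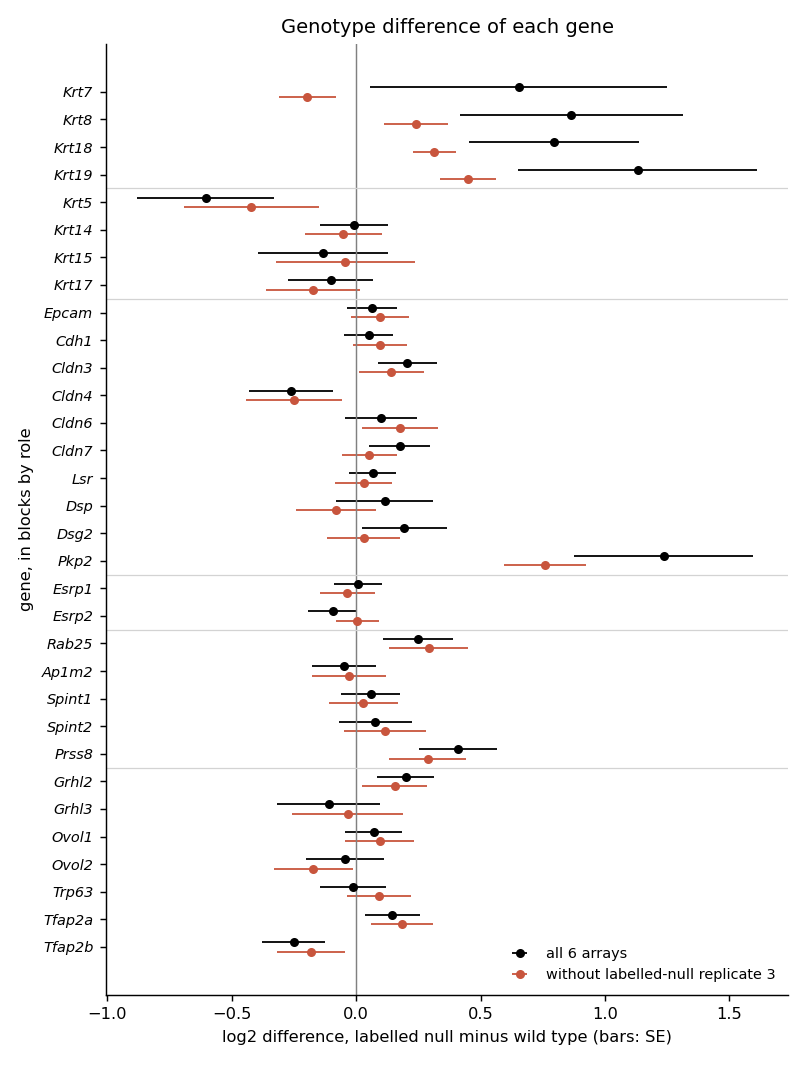
Log2 difference of each of the 32 genes, labelled null minus wild type (horizontal axis, bars are SE from limma), with all 6 arrays in black and without labelled-null replicate 3 in red. The simple keratins and Pkp2 lie furthest to the right in black and move left in red, Krt7 to the other side of 0, while Krt5 lies furthest to the left.

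The basal keratins varied within a genotype, and none of the 4 passed the test. Krt5, the type II keratin of basal layers, read 7.75, 7.93 and 6.91 on the wild-type arrays and 6.97, 7.25 and 6.56 on the labelled-null arrays. Labelled-null replicate 3, the highest array for the simple keratins, was the lowest for Krt5, its difference from the average of the remaining arrays being -0.80. The difference of -0.60 (log2, SE 0.28) had an unadjusted p of 0.0588 and an adjusted p of 1.00 in limma, and it was -0.42 (SE 0.27) without that array, -0.92 without wild-type replicate 3, -0.40 without wild-type replicate 2 and -0.28 with array weights. Each labelled-null array was below the wild-type array of the same number (differences of -0.78, -0.69 and -0.35), and with the replicate number as a block the SE was 0.12, the unadjusted p 0.00183 and the adjusted p 0.490 in limma. Krt15, a type I keratin of basal progenitors, read 7.51, 7.63 and 6.64 on the wild-type arrays and 6.99, 7.44 and 6.95 on the labelled-null arrays, a difference of -0.13 (SE 0.26). Krt14, the partner of keratin 5, differed by -0.01 (SE 0.14) and Krt17, a type I keratin of periderm and appendage ectoderm read near the low end of the scale, by -0.10 (SE 0.17). With labelled-null replicate 3 left out Krt15, Krt14 and Krt17 differed by -0.04, -0.05 and -0.17. The median of the 4 was -0.12, but 0.07 with array weights and 0.01 without wild-type replicate 2, so its direction was not stable.

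Wild-type replicate 3 was the lowest of the wild-type arrays for all 4 basal keratins and for Grhl3, Cldn4, Cldn6, Rab25 and Spint2 among others. In all this held for 17 of the 32 genes (53.1%), against 32.1% of all tested genes, and for 1 of the 4 simple keratins, Krt19. Krt5 spanned 1.02 among the wild-type arrays alone, more than the difference between the genotype means, and the SD among wild-type arrays was 0.55 for Krt5, 0.54 for Krt15 and 0.43 for Grhl3, against 0.18 for Epcam and 0.15 for Cdh1. Among the wider set of 77 epithelial and ectoderm genes described below the same array was lowest of the wild type for 31 (40.3%), made up of 16 of 23 further junction genes, 6 of 13 genes of proteases, trafficking and signalling, 4 of 16 patterning genes, 2 of 10 genes of basement membrane attachment, 2 of 8 further keratins and 1 of 7 further transcription factors.

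**Figure D5:**
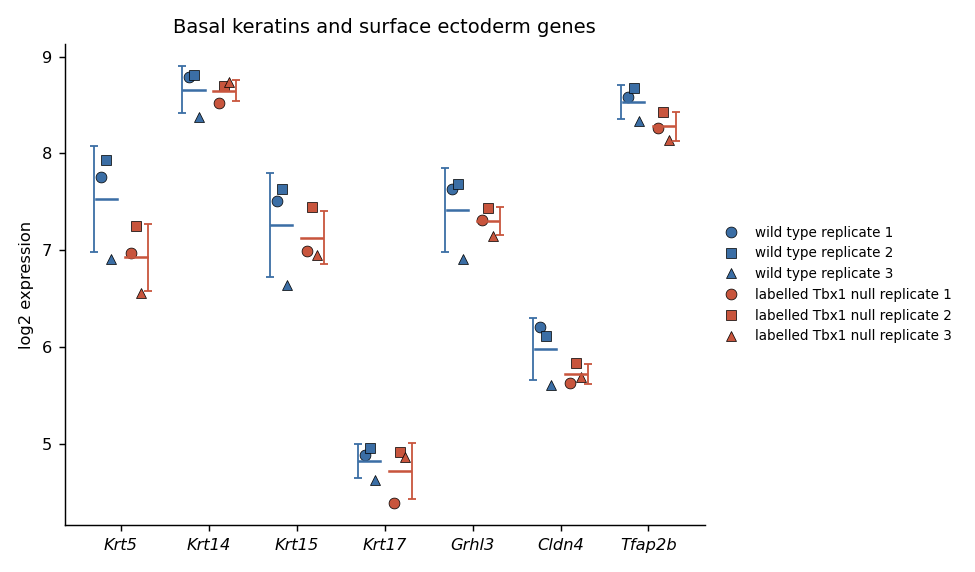
Log2 expression (vertical axis) of the basal keratins and 3 other ectoderm genes on the wild-type (blue) and labelled-null (red) arrays, with means as lines and SD as bars (n = 3). The blue triangle of wild-type replicate 3 is the lowest wild-type point for all 7 genes shown, and the labelled-null points overlap the wild-type range for each.

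Transcription factors of the surface ectoderm showed small differences in both directions. Trp63, the p63 regulator of stratified epithelia, read 11.66, 11.38 and 11.23 on the wild-type arrays and 11.60, 11.43 and 11.20 on the labelled-null arrays, a difference of -0.01 (SE 0.13, 95% interval -0.32 to 0.29). Grhl3, a Grainyhead-like factor of surface ectoderm and barrier formation, read 7.64, 7.69 and 6.91 on the wild-type arrays and 7.32, 7.44 and 7.15 on the labelled-null arrays, a difference of -0.11 (SE 0.21). The genotypes overlapped for both. Grhl2, a related activator of Cdh1 and claudin genes, differed by 0.20 (SE 0.11) on its brightest probe set, which had a mean of 10.46. It differed by -0.25, -0.06 and -0.27 on its other sets, which were far dimmer, with means of 5.47, 5.755 and 4.67. On the mean of its sets the difference was -0.10, so that its direction depended on the set. With labelled-null replicate 3 left out Trp63, Grhl3 and Grhl2 differed by 0.09, -0.03 and 0.15.

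Tfap2a and Tfap2b encode AP-2 factors of ectoderm and of neural crest, so that their transcripts are not confined to epithelium. Tfap2b read 8.58, 8.68 and 8.33 on the wild-type arrays and 8.27, 8.43 and 8.14 on the labelled-null arrays, a difference of -0.25 (SE 0.13, unadjusted p 0.0804 and adjusted p 1.00 in limma), and with the replicate number as a block an unadjusted p of 0.0275 in limma. Tfap2a differed by 0.15 (SE 0.11). Ovol1 and Ovol2, zinc finger factors that favour epithelial differentiation, read at most 5.54 on any array and differed by 0.07 (SE 0.11) and -0.05 (SE 0.16). On the remaining 5 arrays, without labelled-null replicate 3, Tfap2b, Tfap2a, Ovol1 and Ovol2 differed by -0.18, 0.18, 0.09 and -0.17. Over the 7 factors 3 had higher and 4 lower means, with a median of -0.01, and 0.09 without labelled-null replicate 3.

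Esrp1 and Esrp2, RNA-binding proteins that set epithelial splice patterns, showed small differences between the genotypes. Esrp1 differed by 0.01 (SE 0.10) and Esrp2 by -0.09 (SE 0.10), and the 95% interval of each lay within 0.5 of 0. They differed without labelled-null replicate 3 by -0.03 and 0.005. On that array Esrp2 was at its lowest, -0.29 from the average of the others. A dimmer second probe set of Esrp2, with a mean of 7.90, was highest there, by 0.38, and differed by 0.06 between the genotypes. Among genes of trafficking and surface proteolysis, Prss8, which encodes the membrane-anchored protease prostasin, read 6.51, 6.88 and 6.52 on the wild-type arrays and 6.998, 6.85 and 7.29 on the labelled-null arrays. Only labelled-null replicate 2 fell inside the wild-type range. The difference was 0.41 (SE 0.16, unadjusted p 0.0306 and adjusted p 1.00 in limma), and 0.29 (SE 0.15) without labelled-null replicate 3. Spint1 and Spint2, Kunitz-type inhibitors of such proteases, differed by 0.06 (SE 0.12) and 0.08 (SE 0.15), Rab25, a GTPase of epithelial recycling endosomes, by 0.25 (SE 0.14), and Ap1m2, a clathrin adaptor subunit of basolateral sorting, by -0.05 (SE 0.13). These 4 differed without labelled-null replicate 3 by 0.03, 0.11, 0.29 and -0.03. The median of the 5 genes of this class was 0.08. Omitting labelled-null replicate 3 gave 0.11, and omitting wild-type replicate 1 gave 0.21.

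The genotypes did not overlap for 3 of the 32 genes (9.38%), Krt18, Krt19 and Pkp2, all higher on the labelled-null arrays, where 3.17% of all tested genes were higher and 3.25% lower without overlap. Without labelled-null replicate 3 these 3 and Rab25 were higher without overlap, 4 genes (12.5%) against 6.68% of all genes, and Krt7 was lower, 1 gene (3.13%) against 7.30%. With another array left out, which makes non-overlap easier, the count in either direction was 4, 6 and 11 of 32 on leaving out wild-type replicate 1, 2 or 3, where 17.0%, 13.7% and 16.3% of all genes did not overlap. It was 6 and 8 of 32 on leaving out labelled-null replicate 1 or 2, where 14.5% and 14.6% of all genes did not overlap.

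A wider set of 87 epithelial and ectoderm genes was also read, of which 79 were measured and 77 tested. None passed in limma over all genes, with or without labelled-null replicate 3. With all arrays the unadjusted limma p was under 0.05 for Tjp3 and Tfap2c, both higher, and for Shh, which was lower, that is 2 and 1 of 77 against 1.47% and 1.20% of all genes. Their median difference was 0.03 (log2), and 0.002 without labelled-null replicate 3. Tjp3, a scaffold of tight junctions, differed by 0.31 (SE 0.13) and Evpl, the cornified envelope protein envoplakin, by -0.28 (SE 0.14), and without that array they differed by 0.26 and -0.19. Tfap2c, an AP-2 factor of ectoderm and trophoblast, read 11.26, 11.31 and 11.33 on the wild-type arrays and 11.46, 11.41 and 11.79 on the labelled-null arrays. No labelled-null array reached down to the wild-type range, with labelled-null replicate 3 the highest, and it differed by 0.25 (SE 0.10), and by 0.13 without that array.

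Of these 77 genes 3 (3.90%) were more than 1 above the other arrays on labelled-null replicate 3, against 1.55% of all tested genes. The 3 are named after their values were seen. Pkp3, another plakophilin, read 7.57 there and 5.92 to 6.27 elsewhere. Grhl1, a Grainyhead-like factor, read 7.08 there and 5.38 to 5.90 elsewhere, and Prom2, a protein of plasma membrane protrusions, 7.88 there and 6.30 to 6.76 elsewhere. Without that array the 3 differed by -0.02, -0.05 and -0.06. Of the 8 further keratins 0 were more than 1 above the other arrays there. Krt23 was 0.64 above them, with that array its highest, and Krt20 was 0.23 above. Krt23 was also the 1 of the 8 that was higher on the labelled-null arrays without overlap, against 3.17% of all tested genes.

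Genes that pattern the oral and facial ectoderm were near level as a list, with a median of -0.04 over 16 genes and 0 past the threshold in limma, while the unadjusted limma p was under 0.05 for 1 lower gene and 0 higher ones, against 1.20% and 1.47% of all genes. The median was 0.01 without labelled-null replicate 3. Shh, the Hedgehog ligand of oral and pharyngeal epithelium, differed by -0.43 (SE 0.19), and Fgf9, an epithelial growth factor, by -0.20 (SE 0.10). For attachment to the basement membrane, Lama5, a laminin chain, differed by 0.33 (SE 0.14) and Lamb3, another, by -0.18 (SE 0.11). Elf3, an epithelial Ets factor, differed by 0.25 (SE 0.15), Erbb3, a receptor tyrosine kinase, by 0.13 (SE 0.11) and Tmc4, a channel-like membrane protein, by 0.22 (SE 0.17), and none of these genes passed. With labelled-null replicate 3 left out Shh, Fgf9, Lama5, Lamb3, Elf3, Erbb3 and Tmc4 differed by -0.33, -0.16, 0.21, -0.20, 0.19, 0.19 and 0.11.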

How the data were processed

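Expression was measured in 6 mandibular arch samples on Affymetrix mouse genome arrays. The authors deposited log2 values for each probe set, made with GCRMA per the submitters' processing notes. The sources used here give no version of it. The log2 scale was read from the values (1.95 to 15.11). GCRMA equalizes array distributions and compresses differences near background.

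Of 45101 probe sets, 34958 named 1 gene and 932 several, which were not used. The brightest set stood for each of 18194 genes, and 16074 genes above 4 on at least 3 arrays were tested with limma 3.58.1 in R 4.3.3 (lmFit, eBayes with an intensity trend, genotype alone, Benjamini-Hochberg over all genes, threshold 0.05). The step was tested on simulated data with independent noise and equal shifts on all 3 labelled-null arrays. These held no array that stood apart as labelled-null replicate 3 does. The genes and lists were chosen with earlier results of these data known. Named were all 32 genes, from each further list the 2 of smallest p, and from each marker list the 2 brightest and the 2 most different, of which the text prints part; any other gene is marked in the text as picked by its values. Genes without a probe set of a single symbol were not analysed here. The number of arrays limits precision.

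Alternatives were the filter, a floor, the mean of probe sets, no trend, other scaling, array weights, the replicate number as a block and each array left out. Replicate numbers 1 to 3 occur in both genotypes. For equally numbered arrays, deviations from the genotype means had correlations of 0.261, 0.130 and 0.135, and for unequal numbers -0.195 to 0.0647. The block fit took the numbers to pair the arrays, from the data alone. With 3 arrays per genotype the deviations sum to 0, so these correlations are not independent and cannot establish a pairing. The p-values of the block fit rest on that assumption. No arrays held identical values (SD of the difference 0.247 to 0.411 within a genotype).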

Additional observations from a re-analysis of the deposited data

How the results depend on the processing

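The count of 0 of the 32 genes past the threshold in limma, and of 0 of the further epithelial genes, held under all 14 alternatives, and the smallest adjusted p of any of the 32 was 0.320, for Pkp2 without labelled-null replicate 3. Of all genes, 10 passed with the replicate block, 2 with no filter, with values under 4 raised to 4 or with no intensity trend, 0 with the mean of probe sets, and 0 to 22 with 1 array left out, against 6. The replicate block changed no call among the 32 at the adjusted threshold. With 1 array left out, the number of the 32 whose genotypes did not overlap ranged from 4 to 11, where 13.7% to 17.0% of all genes did not overlap with an array other than labelled-null replicate 3 left out, the median of the adhesion and junction genes from 0.055 to 0.22 (log2), that of the trafficking and protease genes from 0.058 to 0.21 and that of the simple keratins from 0.28 to 1.14. Grhl2 differed by -0.10 on the mean of its probe sets. A sign changed in 34 of 447 values of the 32 genes under the alternatives, over 18 genes, and none of these values was past the threshold. Values near 4 are a weak basis for a difference, as for Krt17 and Ovol2.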
